A study of Drosophila melanogaster with 2 samples.

Results

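The nuclear lamina and envelope genes described here are 8 genes chosen by name, Lam, LamC, LBR, Ote, bocks, koi, klar and RanGap, out of the 13623 genes with an expression value. Of these 8, 7 were found under their own symbol, and bocks was found under the name bocksbeutel, which RefSeq lists as a synonym. All 8 were above 1 FPKM (fragments per kilobase of transcript, scaled to the mapped reads of the library) in both libraries. Nuclear RNA was sequenced from 1 library of glial nuclei and 1 library of GNP nuclei, GNP being the Gcm-expressed neural progenitor cells, which the sample labels name early glial cells. Neither cell type was sequenced in replicate, and the differences below therefore have no replicate check and no test.

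The glial nuclei came from Drosophila embryos of 12 to 14 h after egg laying carrying repo-Gal4 together with UAS-3xFLAG-blrp-mCherry-RanGap over the balancer Tm3B. The GNP nuclei came from embryos of 5 to 7 h carrying gcm-Gal4, UAS-mCDGFP over the balancer cyo, and the same RanGap fusion. The methods of the paper differ in part, naming no balancer in the final GNP line. They describe the embryos of each line as the offspring of a selfcross, for glia of flies still carrying Tm3. The copies of driver and fusion may therefore differ between the lines, and their part in the RanGap values was not tested. In both lines Gal4 is made under the control of a cell-type gene, repo in glia and gcm in progenitors, and drives the fusion, so that nuclei carrying FLAG on their envelope can be pulled from homogenates of pooled, fixed whole embryos with anti-FLAG beads. The gene gcm is also known to act in blood cell precursors, so that its driver need not be limited to neural progenitors. The ages are those of the sample labels, whose growth protocol gives development times that do not match them. The methods of the paper give the same ages, with development times that match. The cell type, the age of the embryo, the driver and the other transgenes therefore changed together and cannot be told apart. RanGap is both a gene of the envelope and part of the tag, and its value may include reads from the transgene.

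The nuclear lamina is a meshwork of lamin filaments under the inner nuclear membrane. Drosophila has a B-type lamin, Lam, which is found in nearly all cells and is anchored in the membrane by a lipid on its tail, and an A-type lamin, LamC, which lacks that tail and is known to appear as cells differentiate. Membrane proteins tie the lamina to chromatin: LBR is the lamin B receptor, and Ote and bocks carry a LEM domain, which binds the DNA-bridging protein BAF. Across the envelope, SUN proteins such as koi reach from the inner membrane to KASH proteins such as klar in the outer membrane, and together they form the LINC complex, which links the nucleus to microtubules and motors. RanGap is the activator of the GTPase Ran on the cytoplasmic side of the envelope, where it helps to give nuclear transport its direction.

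The labels were set against marker genes. The glial transcription factor gene repo was at 32.0 FPKM in glia and 3.84 FPKM in GNP, and gcm was at 21.5 FPKM in glia and 40.2 FPKM in GNP. Of 11 glial markers, 5 had a change of 2-fold or more toward glia and 0 toward GNP. Markers of other cell types were also present, and 12 of 15 muscle genes, 6 of 9 neuron genes, 3 of 5 trachea genes and 3 of 5 epidermis genes passed 2-fold toward glia, where the share over all genes was 21.2%. The count of 2 of 9 hemocyte genes, Pxn and PPO1, was near that share. Toward GNP, 1 of the 5 trachea genes passed 2-fold, btl, at 5.90 FPKM in glia and 19.7 FPKM in GNP. Of the muscle, neuron, epidermis and hemocyte genes 0 did, where the share over all genes was 16.4%. These counts add 1 FPKM to each value, which holds back low genes. With 0.1 FPKM added instead, 4 hemocyte genes passed toward glia, and 1 hemocyte and 1 muscle gene toward GNP. Of all genes, 3938 then passed toward glia and 2790 toward GNP. The muscle genes summed to 8105 FPKM in glia and 1303 FPKM in GNP, and the neuron genes to 522 FPKM in glia and 114 FPKM in GNP. The trachea genes summed to 786 FPKM in glia and 124 FPKM in GNP, the epidermis genes to 127 FPKM in glia and 55.9 FPKM in GNP, and the hemocyte genes to 281 FPKM in glia and 95.1 FPKM in GNP. Most of the trachea sum in glia lay in serp and verm, at 299 and 428 FPKM, and most of the hemocyte sum in PPO1, at 171 FPKM. The glial markers summed to 586 FPKM in glia and 355 FPKM in GNP. Of these markers only the hemocyte gene eater was listed at 0, in the glia library. In such bulk values fewer cells of a type and less RNA per cell cannot be told apart.

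Changes are given on the scale of log2(FPKM + 1), as the glia value minus the GNP value, and on this scale the difference of a low gene is too small. Of the 8 genes, 2 were 2-fold or more higher in glia, LamC and RanGap, and 3 were at least 2-fold lower, Lam, LBR and Ote. The other 3, bocks, koi and klar, changed by less than 2-fold. Over all 13623 genes the shares were 21.2% higher and 16.4% lower, or 2893 and 2231 genes. The total includes many low genes, 3804 under 1 FPKM in glia and 4513 in GNP, which the added 1 FPKM holds back. Once genes averaging under 1 FPKM were dropped, 2814 higher and 2202 lower genes were left, of a smaller total. The 21.2% and 16.4% set beside each list here are therefore lower than the shares of expressed genes. The balance of the counts over all genes depended on scaling, with 2550 higher and 2780 lower with TPM scaling. With upper quartile scaling 3273 were higher and 1847 lower. Leaving out RanGap, the summed level of the other 7 genes was 530 FPKM in glia and 881 FPKM in GNP. Depth was not in the table, but low values were spaced as whole reads would be, and this spacing gave an estimated 52.5 M mapped reads for glia and 64.2 M for GNP. At these depths Ote, the gene with the fewest reads in glia, had about 1079 reads in glia and 9164 in GNP, and LamC, with the fewest in GNP, had at least 12131 in glia and 2679 in GNP. Intervals given below are 95% exact (Clopper-Pearson) intervals that cover this counting error only, reads not being independent molecules, and they say nothing on how far other libraries would differ.

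**Figure D1:**
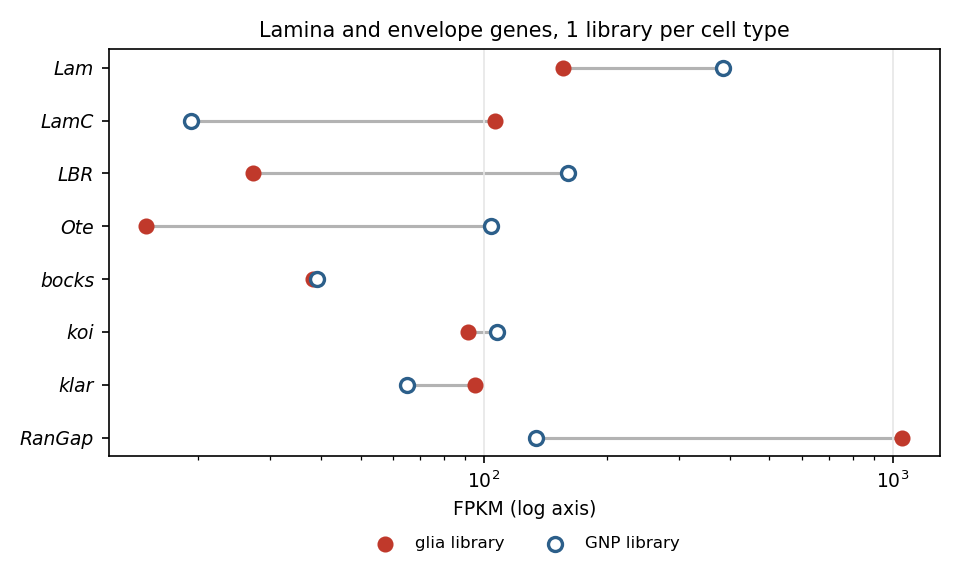
FPKM of the 8 genes on a log axis in the glia library (filled points) and the GNP library (open points), joined by a line for each gene. RanGap and LamC lie to the right in glia, Lam, LBR and Ote lie to the left, and the points of bocks nearly coincide, at 38.2 FPKM in glia and 39.2 FPKM in GNP.

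The 2 lamins moved in opposite directions. The B-type lamin gene Lam (chromosome 2L, 5542480 to 5546642 on the plus strand of BDGP6, the build of all positions given here) was at 156 FPKM in glia and 385 FPKM in GNP, a log2 change of -1.29. Its FPKM in glia was 0.406 times that in GNP, with a counting interval of 0.400 to 0.412. The A-type lamin gene LamC (chromosome 2R, 14570810 to 14575771 on the minus strand) was at 107 FPKM in glia and 19.2 FPKM in GNP, a log2 change of 2.41. This was 5.54 times as high in glia, with a counting interval of 5.31 to 5.78. Lam thus remained the higher of the lamins in both libraries, but the distance between them closed.

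Because FPKM is a value per length, the levels of the lamins can be set against each other within a library. LamC made up 40.5% of the summed lamin FPKM in glia and 4.76% in GNP. The ratio of Lam to LamC was 1.47 in glia and 19.999 in GNP, so that LamC was 13.6 times as high relative to Lam in glia. Such a ratio within a library does not depend on how the libraries are scaled to each other. The summed lamin level was 263 FPKM in glia and 404 FPKM in GNP.

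LamC lies within the gene ttv, on the opposite strand, and shares no exon bases with it in BDGP6. The sources used here do not state whether strand was recorded, and reads from ttv introns across LamC cannot be told apart from its own. The gene ttv, which encodes an enzyme of heparan sulfate synthesis, was at 15.95 FPKM in glia and 31.7 FPKM in GNP, a log2 change of -0.95, the direction opposite to LamC. The change of LamC lay inside the range of the 15 muscle markers, of which 8 had a higher log2 change and 7 a lower one. It lay inside the range of the other marker lists as well. A higher log2 change was found for 4 of 9 neuron, 3 of 5 epidermis, 2 of 5 trachea, 2 of 11 glia and 1 of 9 hemocyte genes. The part of muscle and other cell types in the LamC value was not tested.

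The proteins that bind the B-type lamin and chromatin at the inner membrane fell into different patterns. LBR (chromosome 2R, 21720495 to 21724055 on the plus strand) was at 27.3 FPKM in glia and 161 FPKM in GNP, a log2 change of -2.52. In GNP it was the most abundant of the 8 genes after Lam, and in glia it stood above Ote alone. Its fall was larger than that of Lam, and the Lam to LBR ratio of FPKM was 5.73 in glia and 2.39 in GNP.

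The LEM domain genes Ote and bocks differed from each other. Ote, known for its role in keeping germline stem cells, is a gene with 1 exon and 1 transcript (chromosome 2R, 18275607 to 18277177 on the minus strand). It was at 15.0 FPKM in glia and 104 FPKM in GNP, a log2 change of -2.72 and the largest fall among the 8 genes. Of all genes, 233 had a larger fall. In contrast, bocks (chromosome 3R, 9589468 to 9591002 on the minus strand) was at 38.2 FPKM in glia and 39.2 FPKM in GNP. Its log2 change was -0.04, which became 0.16 with upper quartile scaling, and its ratio of 0.975 had a counting interval of 0.924 to 1.03, which includes no difference. The bocks to Ote ratio was 2.55 in glia and 0.377 in GNP, so that the LEM domain gene with the higher level was bocks in glia and Ote in GNP. The gene bocks shares 114 exon bases with P58IPK on the opposite strand, which was at 58.9 FPKM in glia and 28.4 FPKM in GNP, so the bocks value is uncertain to that extent.

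A list of 7 further genes, of the lamina and inner membrane and their partners, moved in the direction of Lam, LBR and Ote. The partners include chromatin and kinase genes, and the list is therefore not one of lamina and membrane proteins alone. They are baf, ball and a heterochromatin gene at 197 FPKM in glia and 615 FPKM in GNP. Of the 7 genes, 6 were at least 2-fold lower in glia and 0 higher, beside 16.4% and 21.2% of all genes. The median log2 change of the list was -1.64, against 0.04 over all genes. The largest falls were those of kuk and ball. The gene kuk encodes a lamina protein known for nuclear shape in the early embryo and was at 59.8 FPKM in glia and 549 FPKM in GNP. The gene ball encodes a kinase that acts on BAF, and it was at 18.5 FPKM in glia and 143 FPKM in GNP. BAF itself, the gene baf, was at 48.3 FPKM in glia and 258 FPKM in GNP, and MAN1, a further LEM domain gene, was at 28.6 FPKM in glia and 84.6 FPKM in GNP. The smallest changes were -0.93 for Torsin, an ATPase of the envelope, the one gene of the list under 2-fold, and -1.49 for Nemp. Torsin too was past 2-fold with TPM scaling or centring on the median gene.

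Of the genes for the tail of B-type lamins none passed 2-fold, though 1 was at least 2-fold higher with upper quartile scaling. A list of 7 such genes, for the farnesyl transferase and the enzymes that trim and methylate the tail, had a median log2 change of -0.29. The protease gene ste24a was at 60.5 FPKM in glia and 79.0 FPKM in GNP, and ste14, the methyltransferase gene, had the highest log2 change at 0.94, with 5.61 FPKM in glia and 2.44 FPKM in GNP. The lowest log2 changes were -0.73 for ste24b and -0.72 for Fntb. The genes ste24b, ste24c and ste14 are low, and with a pseudocount of 0.1 FPKM or none 2 genes of the list were at least 2-fold lower and 1 higher.

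**Figure D2:**
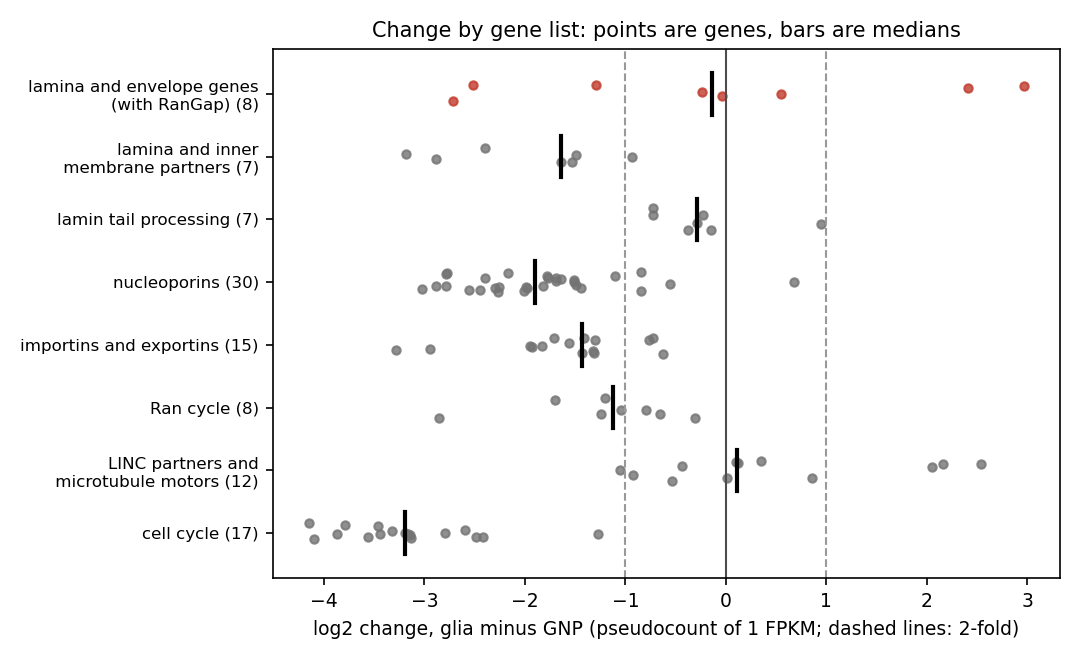
Log2 change of each gene, glia minus GNP, for the 8 lamina and envelope genes with RanGap (red, top row), 6 lists of related genes and the cell cycle list (grey), with a bar at the median of each. The 8 genes spread from -2.72 to 2.97, while the nucleoporins and the cell cycle genes lie mostly or wholly left of the 2-fold line, with medians of -1.90 and -3.19.

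The LINC complex genes koi and klar were, like bocks, within 2-fold. The SUN gene koi (chromosome 2R, 6811019 to 6818199 on the plus strand) was at 91.7 FPKM in glia and 108 FPKM in GNP, a log2 change of -0.23. The KASH gene klar, known for nuclear movement in the eye and for the transport of lipid droplets, was at 95.4 FPKM in glia and 65.0 FPKM in GNP, a log2 change of 0.55. The levels of the pair lay close together in glia, with a klar to koi ratio of FPKM of 1.04, against 0.602 in GNP. Both have several transcripts, koi 6 of 1856 to 4276 bases and klar 9 of 2708 to 8706 bases, and the values are per gene. The long gene klar (chromosome 3L, 434083 to 540614 on the minus strand) also holds smaller genes, of which CG34267, CG34268 and CG34269 were between 0.667 and 1.73 FPKM in glia and between 0.136 and 7.33 FPKM in GNP. BDGP6 places noncoding RNA genes within klar as well, for which no value was used here, and a small noncoding RNA gene on the same strand shares 64 exon bases with klar.

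In a list of 12 genes, mostly partners of the LINC complex and microtubule motors, 3 were at least 2-fold higher in glia and 1 lower. The median log2 change was 0.11, and -0.13 with TPM scaling. The first count is near the 21.2% of all genes that were higher, and the second is under the 16.4% that were lower. The kinesin light chain gene Klc was at 94.0 FPKM in glia and 15.3 FPKM in GNP, and Lsd-2, which encodes a coat protein of lipid droplets, was at 149 FPKM in glia and 32.5 FPKM in GNP. Lsd-2 is thus not a motor gene, though it is among the 3 higher genes. The second KASH gene, Msp300, known as a nesprin of muscle, was at 61.1 FPKM in glia and 14.0 FPKM in GNP, a log2 change of 2.05. The dynein adaptor gene BicD was the one at least 2-fold lower, with 20.04 FPKM in glia and 42.7 FPKM in GNP. It was within 2-fold with upper quartile scaling. The dynein regulator gene nudE had a log2 change of -0.93. The second SUN gene of the list, spag4, was low in both libraries, at 0.386 FPKM in glia and 0.0879 FPKM in GNP. The motor genes Khc and Dhc64C had log2 changes of 0.12 and 0.01. Of the 15 muscle markers counted above, 12 rose as Msp300 did and 3 fell, Act87E, Mef2 and Unc-89, each by less than 2-fold. The part of muscle in the Msp300 value was not tested.

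RanGap had the highest level of the 8 genes in glia and the largest rise. RanGap (chromosome 2L, 19441959 to 19447317 on the plus strand) was at 1055 FPKM in glia and 134 FPKM in GNP, a log2 change of 2.97. The FPKM ratio was 7.87, with a counting interval of 7.74 to 8.01. It was higher than 99.1% of all genes in glia and 94.9% in GNP, and 377 genes of the table had a larger rise. In GNP it followed Lam and LBR among the 8 genes.

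The transgene carries RanGap in both lines, under repo-Gal4 in glia and gcm-Gal4 in GNP, and reads of the fusion and of the native gene cannot be told apart in these values. The eye color gene w, a copy of which often marks fly transgenes, was at 296 FPKM in glia and 5.93 FPKM in GNP, and its part in the RanGap difference was not tested. RanGap also overlaps Hs2st and CG10237 on the opposite strand, with no shared exon bases. Hs2st was at 13.7 FPKM in glia and 10.6 FPKM in GNP, and CG10237 at 20.2 FPKM in glia and 58.0 FPKM in GNP, and their part in the RanGap value was not tested.

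None of the 8 genes in a list of the Ran cycle and its partners had a positive log2 change. The list includes the SUMO pathway genes lwr and smt3 and the RNA export gene Nxt1. Of the 8 genes, 5 were at least 2-fold lower in glia, lwr and Nxt1 among them, and 0 were higher. The shares over all genes were 16.4% lower and 21.2% higher. The median log2 change of the list was -1.12. The GTPase gene Ran was at 351 FPKM in glia and 1141 FPKM in GNP, and Rcc1, which loads Ran with GTP on chromatin, was at 57.1 FPKM in glia and 420 FPKM in GNP. The smallest changes were -0.31 for RanBPM and -0.65 for the SUMO gene smt3. The RanGap to Ran ratio of FPKM was 3.01 in glia and 0.117 in GNP. The nucleoporin gene Nup358, whose vertebrate counterpart docks RanGap at the pore, was at 15.9 FPKM in glia and 124 FPKM in GNP. The RanGap to Nup358 ratio was 66.5 in glia and 1.08 in GNP. Reads of the fusion may be part of the RanGap value in both ratios.

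**Figure D3:**
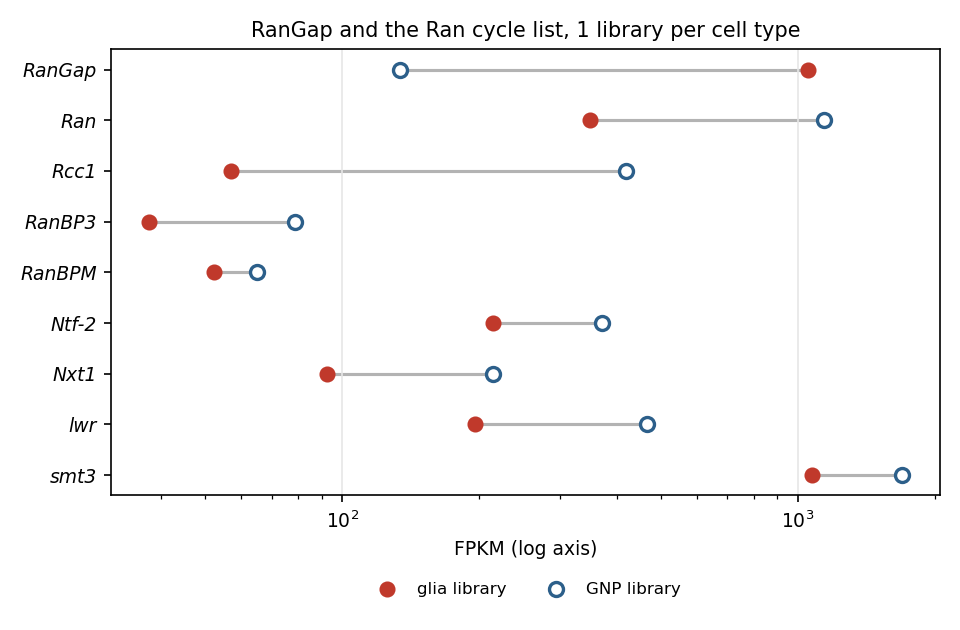
FPKM of RanGap and of the 8 genes of the Ran cycle list on a log axis, in the glia library (filled points) and the GNP library (open points). RanGap is the one gene whose glia point lies to the right of its GNP point, at 1055 FPKM in glia against 134 FPKM in GNP.

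The genes of the nuclear pore and of transport through it were lower in glia as a group. Of 30 nucleoporins, 26 were at least 2-fold lower and 0 higher, with a median log2 change of -1.90. Mtor, the large protein of the pore basket, fell most, with 10.7 FPKM in glia and 94.1 FPKM in GNP, followed by Nup358 at -2.89. Sec13, which is also part of the coat of secretory vesicles, was the one with a positive log2 change, at 130 FPKM in glia and 80.4 FPKM in GNP, and the next smallest change was -0.55 for Nup44A. Of 15 importins and exportins, 12 were at least 2-fold lower and 0 higher, with a median of -1.43. Ranbp9, an importin, was at 5.996 FPKM in glia and 67.2 FPKM in GNP, and Pen, an importin alpha, was at 17.1 FPKM in glia and 139 FPKM in GNP. The smallest changes of that list were -0.63 for RanBP11 and -0.72 for msk. Over the 6 lists together 50 of 79 genes were at least 2-fold lower in glia and 3 higher, beside the background of 16.4% and 21.2% over all genes.

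Set against these lists, the 3 lower genes lay at different places. Of the 30 nucleoporins, 25 had a larger fall than Lam, 6 a larger fall than LBR and 5 a larger fall than Ote. All but 1 of the 30 had a lower log2 change than koi, bocks or klar, the exception being Sec13. Genes of the cell cycle moved with the falls: all 17 of a list were at least 2-fold lower in glia, against 16.4% of all genes. Their median log2 change was -3.19, against 0.04 over all genes. Their summed level was 408 FPKM in glia and 4017 FPKM in GNP. CycB was at 59.3 FPKM in glia and 1067 FPKM in GNP, while stg had the smallest fall at -1.27, the one cell cycle gene with a smaller fall than Lam. The part of cell division in the values of Lam, LBR and Ote was not tested.

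The order of the 8 genes by level differed between the libraries. In glia it was RanGap, Lam, LamC, klar, koi, bocks, LBR and Ote, and in GNP it was Lam, LBR, RanGap, koi, Ote, klar, bocks and LamC. LamC was the lowest of the 8 in GNP and stood behind RanGap and Lam alone in glia, and Ote was the lowest in glia. The closest neighbours were klar and koi in glia, at 95.4 and 91.7 FPKM, and koi and Ote in GNP, at 108 and 104 FPKM. As there is no spread over samples, which neighbours differ beyond it cannot be said.

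The genes nearest to a member in the plane of the 2 libraries, by Euclidean distance over their log2(FPKM + 1) values, were found for Lam, LamC and RanGap. Nearest to Lam were the importin alpha gene Kap-alpha3, with 144 FPKM in glia and 361 FPKM in GNP, and then Eb1 and CG1240, at distances of 0.15 to 0.19. Nearest to LamC were Unc-115a, with 110 FPKM in glia and 19.3 FPKM in GNP, and then CG33169 and Tsp42Ea, at distances of 0.04 to 0.08. RanGap had no gene as near, with CG11267, CG6770 and Argk at distances of 0.46 to 0.66. With 2 libraries the likeness is no more than that of a pair of levels.

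The changes of the 8 genes were computed again under other settings. Scaling the libraries to TPM, to the upper quartile or to the median gene moved the genes by a log2 shift of about -0.25, 0.20 or -0.12, and pseudocounts below 1 FPKM moved these well-expressed genes little. LamC and RanGap stayed at least 2-fold higher, and Lam, LBR and Ote at least 2-fold lower, under each of these scalings and pseudocounts. A filter on a mean of at least 1 FPKM drops other genes only and cannot change the values of the 8. Lam came nearest to the limit, at -1.10 with upper quartile scaling. The direction of bocks was not fixed, with values from -0.28 to 0.16, while koi stayed below 0 and klar above 0.

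**Figure D4:**
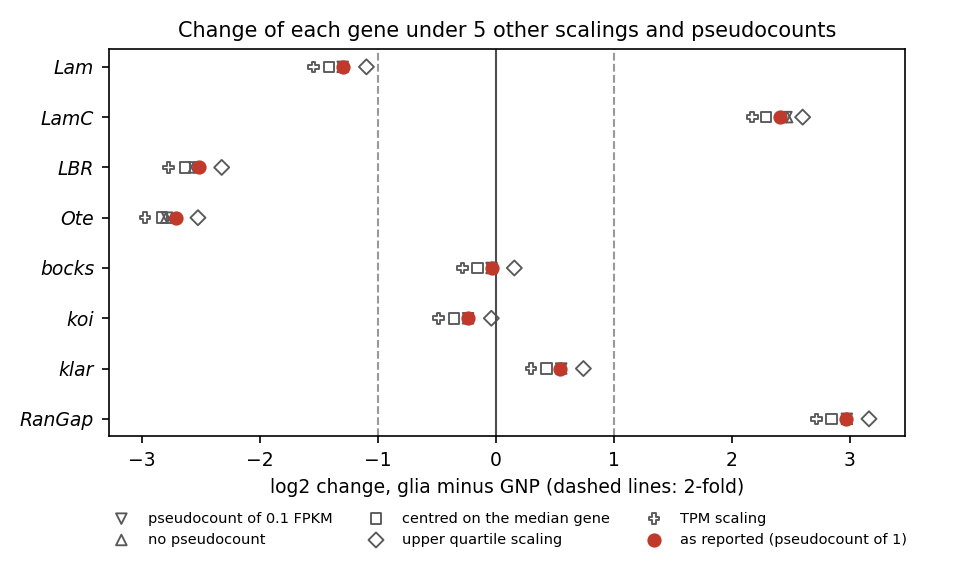
Log2 change of each of the 8 genes, glia minus GNP, as reported (red points) and under 5 other pseudocounts and scalings (open symbols); dashed lines mark 2-fold. Among the settings drawn only the points of bocks lie on both sides of 0.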

How the data were processed

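Total nuclear RNA of INTACT-purified nuclei was sequenced as single-end reads of 49 bp. The authors mapped reads with TopHat (1.3.1) to FlyBase r5.43 transcripts (dm3), and the deposited FPKM values per gene were made by the authors with Cuffdiff (1.3.0); the methods call the unit RPKM. A p-value and a call per gene from the authors' own comparison were not used.

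Log2 changes used a pseudocount of 1 FPKM, and genes past 2-fold were counted without a test. Depth was estimated from low values of 5698 genes with 1 transcript of at least 600 bases in BDGP6 and an assumed fragment length of 200 bases; 84.0% of low values in glia and 81.8% in GNP then lay within 0.1 of a whole read. The depth and fold steps were run on simulated data made with the same transcript lengths and fragment length. This checks the code and cannot test those assumptions. BDGP6 is a later build than dm3, so its lengths and places are approximate for these values. Promoter and protein sequences were not analysed here.

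The 8 genes and the 13 hand-written lists were chosen with earlier results of these data known. Named are the 8 genes, genes overlapping them that have a value, the 3 nearest genes of Lam, LamC and RanGap, repo, gcm and w, and of each envelope list the 2 largest rises and falls (where none rose, the smallest falls) and genes against its direction; further list genes were named for their roles after their values were seen. Alternatives were pseudocounts of 0.1 and 0 FPKM, 3 scalings, a mean of at least 1 FPKM, and limits of 1.5-fold and 4-fold. The work used scipy 1.17.1, matplotlib 3.10.9, numpy 2.4.6 and pandas 2.3.3 under Python 3.11.15.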

Additional observations from a re-analysis of the deposited data

How the results depend on the processing

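Under pseudocounts of 0.1 and 0 FPKM, 3 scalings and a mean of at least 1 FPKM, LamC and RanGap were at least 2-fold higher in glia each time, and Lam, LBR and Ote lower. A limit of 4-fold left LamC and RanGap as the 2 higher and LBR and Ote as the 2 lower genes, and of all genes 1153 passed it as higher and 614 as lower, the limit being stricter. Of the list medians, that of LINC partners and motors ranged from -0.13 to 0.30, and those of the other envelope and transport lists stayed below 0. The hemocyte median of 0.21 was 1.10 with no pseudocount and 0.88 with a mean of at least 1 FPKM, where genes at or near 0 leave the list or gain weight. At the 4-fold limit 13 nucleoporins, 3 lamina and inner membrane partners, 2 importins and exportins and 1 gene of the Ran cycle were lower. No paired analysis was possible because glia and GNP have 1 library each, and for the same reason no alternative shows how far another library would differ.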
